A study of Homo sapiens with 27 samples.

Results

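Cholesterol synthesis genes were followed through the RNA, chromatin and RNA-binding libraries of HL-60, a human promyelocytic leukaemia cell line. The set holds 8 of the 58233 genes in each gene table. HMGCS1, IDI1, FDFT1, SQLE, LSS, CYP51A1 and DHCR7 encode enzymes of the pathway, and INSIG1 encodes a protein that holds the pathway's regulators back. The 8 genes were chosen by name with measured values in view: SQLE was among the lowest genes in nascent RNA under both transcription inhibitors. Ratios of the inhibitor libraries to their vehicle are therefore given as a description, with no test.

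The study set out to relate RNAs made early in S phase, and RNA binding by H2A.Z and Tip60, to gene expression. Total RNA and nascent RNA, captured by click chemistry, came from untreated HL-60 cells. Nascent RNA, chromatin immunoprecipitation (ChIP) of H2A.Z and of acetylated H2A.Z (acH2A.Z), and input DNA came from HL-60 cells given the vehicle DMSO, DRB at 100 µM or actinomycin D (ActD) at 0.8 µM. ChIP of the same proteins was also made from cells labelled siMyc or siNTC, and RNA pulled down with H2A.Z, acH2A.Z or Tip60 (RNA immunoprecipitation, RIP) from untreated cells, of which the acH2A.Z sample is labelled HL-60a. The length of treatment is not given in the sources used here. DRB inhibits the kinase that releases paused RNA polymerase II, and ActD binds DNA and blocks RNA polymerases. H2A.Z is a histone variant found around gene starts, and Tip60 is an acetyltransferase that can acetylate it. No RNA from siMyc or siNTC cells was analysed here, so the labelled knockdown was not checked in RNA. Each group was 1 library of 1 cell line, so no test between groups was possible and every difference has no replicate check.

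Cells make cholesterol from acetyl-CoA through mevalonate, isoprenoid units and squalene to lanosterol, which is then trimmed to cholesterol. When membranes run short of sterol, SCAP carries the transcription factors SREBP1 and SREBP2 to the Golgi, where they are cut and released to switch the enzyme genes on. When sterol is plentiful, INSIG proteins keep SCAP in the endoplasmic reticulum, and INSIG1 is itself a target of SREBP.

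Total expected counts were 12679342 in total RNA, 25167597 in untreated nascent RNA, and between 12600067 and 14426368 in the 3 nascent libraries of treated cells. Genes encoded in mitochondria took 0.649% of total RNA and 0.56% of untreated nascent RNA, against 45.9% with DMSO, 66.5% with DRB and 56.9% with ActD. They were left out of every CPM (counts scaled to a library total of 1000000). The counts that remained were 7799808 with DMSO, 4807213 with DRB and 5435877 with ActD. A CPM is thus a share of the remaining counts. A higher or lower CPM under an inhibitor does not give the direction in which the amount of that RNA changed. A level of 3 counts corresponded to 0.385 CPM in the DMSO library, 0.624 in the DRB library and 0.552 in the ActD library. Promyelocyte markers summed to 1384 to 4100 CPM over the 5 RNA libraries, while ELANE was at 0 in 4 of them. Erythroid markers summed to 0.799 CPM at most, epithelial and fibroblast markers to 3.84 and lymphoid markers to 10.1.

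The stretches before the starts of 4 genes are printed because their chromatin values stood at the ends of the range described further on (INSIG1 under DRB, DHCR7 and LSS under ActD) or because the gene had the highest RNA level of the set in DMSO (HMGCS1). Each is the 250 bases before the gene start of RefSeq, build GRCh38.p14, read 5′ to 3′ on the gene's strand. Capitals mark matches on either strand to CCAAT, to GGGCGG, to CACGTG, and to TCACNCCAC with at most 1 mismatch. These are the core letters of sites for NF-Y, for SP1, for E-box factors and for a sterol regulatory element. HMGCS1 lies on the minus strand and its stretch is chr5:43313413-43313662. INSIG1 lies on the plus strand at chr7:155297628-155297877. LSS lies on the minus strand at chr21:46228775-46229024. DHCR7 lies on the minus strand at chr11:71449044-71449293.
HMGCS1: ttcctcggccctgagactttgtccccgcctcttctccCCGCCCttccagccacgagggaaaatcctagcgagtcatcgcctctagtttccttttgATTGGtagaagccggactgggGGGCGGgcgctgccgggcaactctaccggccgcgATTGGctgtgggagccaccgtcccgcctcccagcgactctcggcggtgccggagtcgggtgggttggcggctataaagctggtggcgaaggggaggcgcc
INSIG1: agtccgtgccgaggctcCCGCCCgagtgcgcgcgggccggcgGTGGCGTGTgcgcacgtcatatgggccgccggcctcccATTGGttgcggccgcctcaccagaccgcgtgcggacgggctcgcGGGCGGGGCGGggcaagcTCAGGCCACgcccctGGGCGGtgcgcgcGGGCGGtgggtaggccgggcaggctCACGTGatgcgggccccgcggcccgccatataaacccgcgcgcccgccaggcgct
LSS: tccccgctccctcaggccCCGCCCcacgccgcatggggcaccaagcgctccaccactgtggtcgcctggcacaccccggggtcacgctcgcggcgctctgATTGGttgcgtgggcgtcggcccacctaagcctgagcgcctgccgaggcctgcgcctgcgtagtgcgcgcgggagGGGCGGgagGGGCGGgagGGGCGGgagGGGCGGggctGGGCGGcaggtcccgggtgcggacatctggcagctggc
DHCR7: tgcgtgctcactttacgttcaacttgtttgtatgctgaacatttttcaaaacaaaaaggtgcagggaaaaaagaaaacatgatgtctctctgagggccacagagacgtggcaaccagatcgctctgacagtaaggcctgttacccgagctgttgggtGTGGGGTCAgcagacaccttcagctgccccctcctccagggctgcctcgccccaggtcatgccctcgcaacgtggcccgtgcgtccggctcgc

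Promoter windows from 250 bases before to 50 after a start were found for 6 of the 8 genes, as 10 windows in all. GGGCGG stood in a window of each of the 6 genes, against 45% of all 35116 promoter windows of the same length. CCAAT stood in a window of 5 of the 6 genes (not CYP51A1), against 34.6% of all windows. In DHCR7 both GGGCGG and CCAAT stood only in its other window, chr11:71448344-71448643, which is not printed. The exact TCACNCCAC stood in none of the 6 genes and in 1.13% of all windows. With 1 mismatch it stood in windows of DHCR7, IDI1 and INSIG1, against 24.5% of all windows. CACGTG stood in the windows of INSIG1 and LSS, against 7.26%, and in LSS it lay after the start and so outside the printed stretch. A GGGCGG match can share bases with the next one, as it does in INSIG1. Genes with several windows had more chances of a match than the single windows they are set beside, and a match is a run of letters, not a bound site.

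In nascent RNA of DMSO cells all 8 genes were detected. Divided by effective length, the CPM per kb spanned 16.8 to 213.5, a 12.7-fold range. HMGCS1 stood highest at 213.5, followed by FDFT1 at 173.4, INSIG1 at 102.5, SQLE at 88.8, IDI1 at 57.7, CYP51A1 at 20.9, LSS at 19.1 and DHCR7 at 16.8. Under DRB the range on the same per-length scale widened to 86.8-fold and under ActD to 193.7-fold. HMGCS1 stayed highest and SQLE became lowest in both inhibitor libraries, at 2.12 CPM per kb under DRB and 0.731 under ActD. With 1 library a group, the spread that would separate neighbours in this order is not known.

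**Figure D1:**
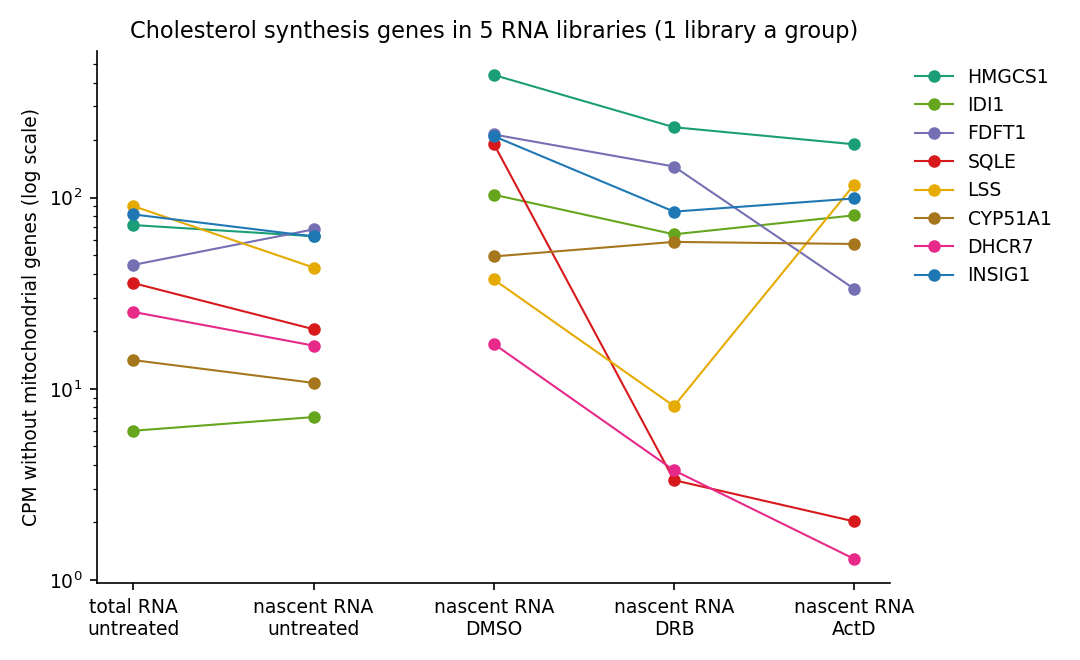
CPM without mitochondrial genes (log scale) of the 8 genes in the 5 RNA libraries, 1 point a library, with lines joining each gene within the untreated and within the treated cells. SQLE fell from 191.3 CPM under DMSO to 3.33 under DRB and 2.02 under ActD, while LSS fell under DRB and rose under ActD on this scale of counts.

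HMGCS1 encodes the synthase that makes HMG-CoA on the way to mevalonate. Its CPM was 71.8 in total RNA, 62.8 in untreated nascent RNA, 438.1 in DMSO cells, 233.4 under DRB and 190.0 under ActD. The DMSO library was the highest of the 5 and the untreated libraries the lowest. Its log2 ratio to DMSO was -0.91 under DRB, with a 95% exact interval of -1.01 to -0.81 from the counts, and -1.20 under ActD (-1.31 to -1.10). Ratios were taken of CPM + 1, while the intervals come from the counts alone and cover counting error only. A change was called lower or higher when the ratio reached 2-fold, so HMGCS1 was lower under ActD and within 2-fold under DRB. Its effective length was 2051.7 bases under DMSO and 1341.9 under ActD. Divided by this length, its CPM per kb was 213.5 and 141.6, within 2-fold. In these bulk libraries fewer cells making a transcript and less RNA per cell cannot be told apart.

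IDI1 interconverts the 2 activated isoprene units. It had 6.03 CPM in total RNA, 7.11 in untreated nascent RNA, 103.6 in DMSO cells, 64.3 under DRB and 80.8 under ActD. The 3 libraries of treated cells were all far above the untreated libraries. Its log2 ratio to DMSO was -0.68 under DRB and -0.36 under ActD, both under 2-fold. With mitochondrial genes in the CPM the DRB value was -1.34, past 2-fold. On the deposited TPM rescaled without mitochondrial genes the values were -1.21 and -1.05, both past 2-fold. Without rescaling, the TPM was 30.8 under DMSO, 10.3 under DRB and 15.6 under ActD, so ActD was then within 2-fold.

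FDFT1, the squalene synthase, commits the pathway to sterols. It had 44.5 CPM in total RNA, 68.2 in untreated nascent RNA, 213.9 under DMSO, 145.4 under DRB and 33.3 under ActD. It was lower under ActD, with a log2 ratio of -2.65 (-2.91 to -2.46), and under DRB it stood at -0.55. The inhibitors thus gave FDFT1 unequal levels, with ActD against DRB at -2.09 (-2.37 to -1.89).

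SQLE encodes squalene monooxygenase, which adds the oxygen that the sterol ring closure needs. It had 35.7 CPM in total RNA, 20.5 in untreated nascent RNA, 191.3 in DMSO cells, 3.33 under DRB and 2.02 under ActD. These last values rested on 16 and 11 counts, against 1492 under DMSO. The level was 1.74% of DMSO under DRB and 1.06% under ActD. Its log2 ratios were -5.47 (-6.66 to -5.14) and -5.99 (-7.57 to -5.72), in the 19th lowest place of 12919 genes under DRB and the 12th lowest of 12788 under ActD. Both inhibitor libraries also lay below the untreated ones.

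LSS, lanosterol synthase, closes the sterol rings. It had 90.3 CPM in total RNA, 43.1 in untreated nascent RNA, 37.3 under DMSO, 8.11 under DRB and 117.0 under ActD. Its CPM moved in opposite directions: the log2 ratio to DMSO was -2.07 (-2.72 to -1.72) under DRB and 1.62 (1.45 to 1.85) under ActD. ActD against DRB gave 3.69 (3.38 to 4.36). The effective length that the authors assign to LSS was 1956 bases under DMSO and 3431 under ActD. On the deposited TPM rescaled without mitochondrial genes, which divides by this length, the log2 ratio under ActD was 0.17. Its CPM per kb was 19.1 under DMSO and 34.1 under ActD, a rise of less than 2-fold. LSS was thus 2-fold higher under ActD in counts and on neither scale divided by length.

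CYP51A1, lanosterol demethylase, had 14.1 CPM in total RNA, 10.7 in untreated nascent RNA, 49.2 under DMSO, 58.7 under DRB and 57.2 under ActD. Its log2 ratios to DMSO were 0.25 under DRB and 0.21 under ActD, and these depend on the scaling. Centred on the median gene they were 1.07 and 1.26, and with mitochondrial genes in the CPM -0.42 and -0.10.

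DHCR7 carries out the last reduction to cholesterol. It had 25.2 CPM in total RNA, 16.8 in untreated nascent RNA, 17.2 in DMSO cells, 3.74 under DRB and 1.29 under ActD. The inhibitor values rested on 18 and 7 counts. Its log2 ratio to DMSO was -1.94 (-3.00 to -1.48) under DRB and -2.99 (-5.08 to -2.66) under ActD.

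INSIG1 had 81.7 CPM in total RNA, 62.7 in untreated nascent RNA, 209.6 under DMSO, 84.5 under DRB and 99.0 under ActD. Its log2 ratio to DMSO was -1.30 (-1.47 to -1.15) under DRB and -1.08 (-1.23 to -0.94) under ActD. Divided by effective length, its CPM per kb was 102.5 under DMSO, 71.1 under DRB and 40.6 under ActD. DRB was then within 2-fold, while on the deposited TPM rescaled without mitochondrial genes it was at -1.01. Both inhibitor libraries stayed above the untreated nascent level.

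Under DRB 4 of the 8 genes were lower (SQLE, LSS, DHCR7 and INSIG1) and none was higher, while 47% of the 12919 measured genes were lower and 15.6% higher. Under ActD 5 were lower (SQLE, DHCR7, FDFT1, HMGCS1 and INSIG1), against 50.7% of 12788 genes, and LSS was higher, against 19%. The median log2 ratio of the 8 genes was -1.10 under DRB and -1.14 under ActD, beside -0.83 and -1.05 over all measured genes. Values of the same contrasts chose the set and DRB and ActD share the DMSO library, so nothing is read from these counts. Relative to the median gene, SQLE stayed at -4.65 and -4.94, while INSIG1 under DRB was at -0.47, HMGCS1 under ActD at -0.15 and INSIG1 under ActD at -0.03, so their calls end on that scale. CYP51A1, at 1.07 and 1.26, was higher under both inhibitors on that scale. Genes of the span of these 8 (12358 to 43717 bases) were lower in 53.5% of cases under DRB and 49.5% under ActD.

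**Figure D2:**
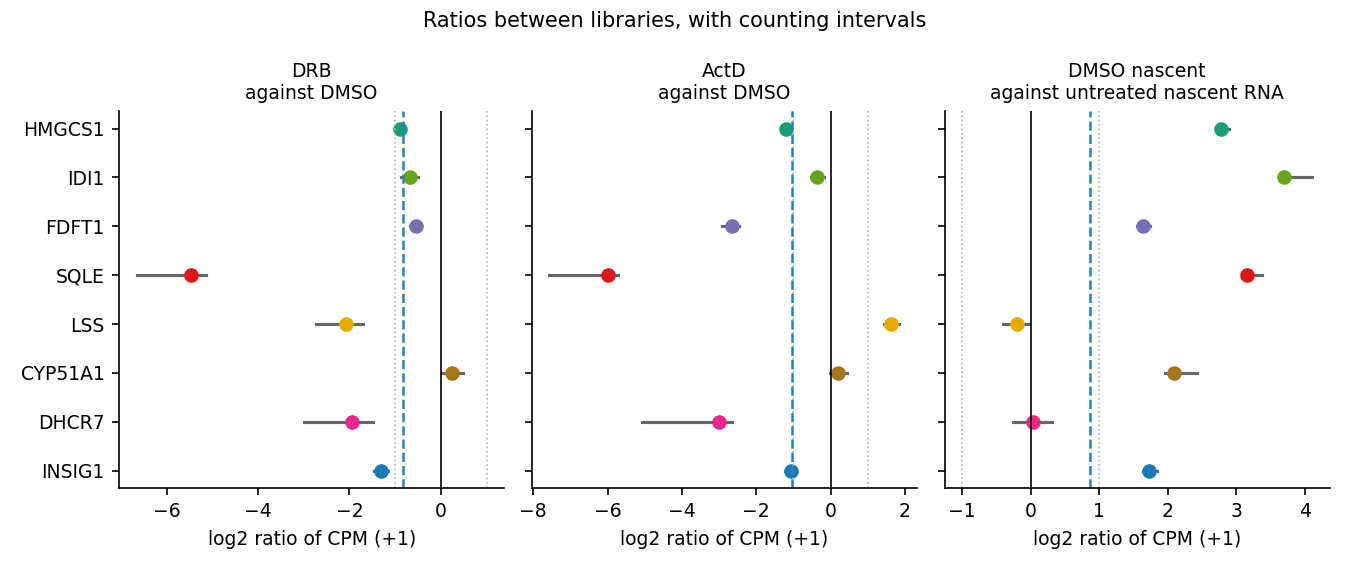
Log2 ratios of CPM + 1 for the 8 genes in 3 comparisons of libraries (points), with 95% exact intervals of the count ratio (bars), the 2-fold limits (dotted) and the median of all measured genes (dashed). SQLE lies at -5.47 and -5.99 under the inhibitors, and LSS is on opposite sides of 0.

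The direct comparison of ActD with DRB placed LSS higher, against 34.2% of 10859 genes, and FDFT1 and DHCR7 lower, against 36.3%. DHCR7 rested on few counts here too, and its log2 ratio of -1.05 had an interval of -3.04 to -0.21. Relative to the median gene DHCR7 was at -0.96, so its call ended on that scale. FDFT1 stayed lower there at -2.01, against 35.1% of genes. With TMM or DESeq2 factors 1 of the 8 was lower too, against 35.5% and 34.8%. The other 5 genes lay between -0.52 (SQLE) and 0.32 (IDI1).

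In untreated cells nascent RNA was within 2-fold of total RNA for 7 of the 8 genes. No gene was higher in nascent RNA, against 9.49% of 13968 genes, and LSS was lower at a log2 ratio of -1.05 (-1.19 to -0.95), against 17.8%. The LSS call ended when ratios were centred on the median gene, where 13.3% of genes were higher and 10.3% lower, and with TMM or DESeq2 factors. FDFT1 stood highest at 0.61 and SQLE next to lowest at -0.77. The median of the 8 genes was -0.37 and that of all genes -0.34.

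DMSO nascent RNA held more of the pathway's transcripts than untreated nascent RNA. 6 of the 8 genes were higher, and the largest ratios were those of IDI1 at a log2 of 3.69 (3.63 to 4.11), SQLE at 3.16 (3.08 to 3.37) and HMGCS1 at 2.78 (2.72 to 2.89). CYP51A1 stood at 2.10, INSIG1 at 1.73 and FDFT1 at 1.63, while LSS at -0.20 and DHCR7 at 0.03 were within 2-fold. The 6 of 8 compare with 46.2% of 14252 genes higher and 14.7% lower. Centred on the median gene, 4 of 8 were higher (IDI1, SQLE, HMGCS1 and CYP51A1), against 22.1% of genes, and LSS was lower, against 26.3%. RN7SL1 took 26.7% of counts in the untreated library and 0.97% under DMSO, and the mitochondrial share differed as given above. The genes of RNA polymerase III (RN7SL1 among them) and of ribosomal RNA were then also left out of the CPM. At that setting 4 of the 8 were higher, against 19.7% of genes, and 2 lower, against 32.3%. The median log2 ratio was 0.82 beside -0.25 over all genes. Vehicle and library cannot be told apart.

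Among the other 15 synthesis enzymes, 10 were higher and 1 lower in DMSO nascent than in untreated nascent RNA, beside 46.2% and 14.7% of all genes. The unequal RN7SL1 and mitochondrial shares of these libraries, given above, apply here too. ACAT2, at the head of the pathway, had 20.2 CPM untreated and 130.5 under DMSO, a log2 ratio of 2.63. Both genes that encode the SREBPs were lower: SREBF1 had 127.1 CPM untreated and 33.6 under DMSO, and SREBF2 330.5 and 109.6. The median log2 ratio was 1.81 for the other enzymes and -0.14 for SREBP and its control genes, beside 0.87 for all genes.

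Under DRB 7 of 14 measured other enzymes were lower and 1 was higher, beside 47% and 15.6% of all genes, and their median log2 ratio was -0.96 beside -0.83. The lowest were NSDHL at a log2 ratio of -2.20 and ERG28 at -2.14, which act together in demethylating sterols. PMVK, a mevalonate pathway kinase, was highest at 1.06. Under ActD 6 of 15 were lower and 3 higher, beside 50.7% and 19%, with a median of -0.13 beside -1.05. The kinase MVK went from 41.4 to 0.184 CPM, a single count, with a log2 interval of -13.12 to -5.33. TM7SF2, a sterol reductase, went from 7.05 to 124.4 CPM, at 3.96 the highest of the list.

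The genes that control SREBP gave 5 of 7 lower under DRB (47% of all genes), with a median of -1.91 beside -0.83, and 3 of 7 lower under ActD (50.7%), with a median of -0.79 beside -1.05. MBTPS2, one of the proteases that cut SREBP, had 33.6 CPM under DMSO, 0.624 under DRB and 0.92 under ActD, with log2 intervals of -8.04 to -4.19 and -6.83 to -3.95. SREBF1 went to 1.25 CPM under DRB and 18.9 under ActD. SREBF2 was within 2-fold in both, at 59.3 and 113.9 CPM, and SCAP was lower under DRB at 6.66 CPM and at 55.6 under ActD.

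Uptake and transport genes gave 1 of 6 lower under DRB (47% of all genes) and 3 of 6 under ActD (50.7%), with medians of 0.51 beside -0.83 and -1.04 beside -1.05. STARD4, a sterol carrier, was the lowest under DRB, at 1.25 CPM against 16.0. In the list of LXR, efflux and storage genes 3 of 6 were lower and 1 higher under DRB, and 5 of 6 were lower under ActD, with medians of -0.82 and -3.11 and the same shares of all genes beside them (15.6% were higher under DRB). ABCA1, the sterol exporter, had 102.7 CPM under DMSO, 165.0 under DRB and 1.66 under ActD, so it was lower under ActD and within 2-fold under DRB.

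**Figure D3:**
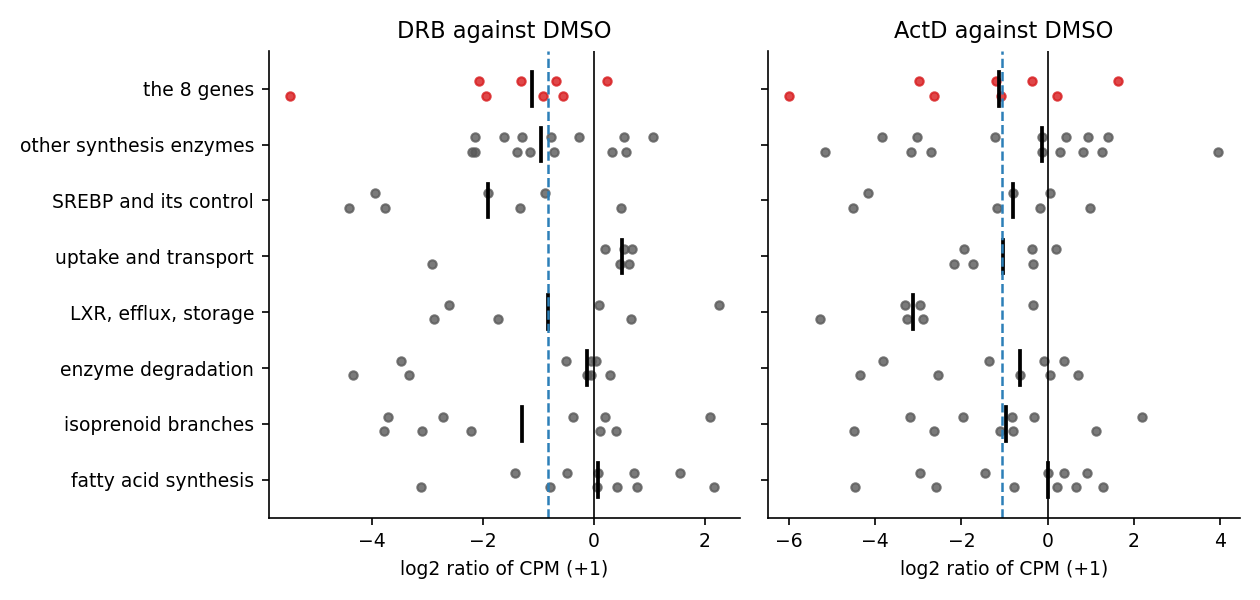
Log2 ratios to DMSO of the measured genes of 8 lists under DRB (left) and ActD (right), 1 point a gene, with each list's median (black bar) and the median of all measured genes (dashed). The medians of the 8 genes lie at -1.10 and -1.14, near all genes, and efflux and storage genes under ActD lie lowest at -3.11.

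By profile over the 5 RNA libraries, as distance between log2(CPM + 1) values centred on each gene's mean, the 5 of 12979 genes nearest to SQLE were TMEM39A, C19orf12, MRPL10, PKIG and C1orf198. TMEM39A, at a distance of 0.43, had 67.3 CPM in DMSO cells, 0.62 under DRB and 0.55 under ActD. The nearest of the other 7 pathway genes was DHCR7 at 2.85, with 1115 genes nearer. Among the 8 genes INSIG1 lay closest to their mean profile, of which it is a part, at 0.35 with 12 genes nearer. The 4 nearest genes outside the pathway were MBNL1, OTUD4, PDCD11 and GOLGA2P7.

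Acetylated H2A.Z was found at all 8 genes in DMSO, DRB and ActD cells, as peaks over or within 1 kb of the gene. Among 12734 genes with a position the share was 82.3% in DMSO, 87.5% in DRB and 79.3% in ActD, so a peak there was the rule for measured genes. In siNTC cells 7 had a peak (not HMGCS1), against 83.9%, and in siMyc cells SQLE and DHCR7 did, against 53.1%. Peaks were called by the authors in each library against a control that the headers do not name. Tag counts are the authors' normalised values per peak, summed here over a gene's peaks and given with the bases covered, since wider calls hold more tags.

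SQLE had 948.8 summed tags over 4940 bases in DMSO, 203.0 over 2433 in DRB and 336.8 over 5255 in ActD. Per kilobase this was 192.1, 83.4 and 64.1. The DMSO and ActD peaks spanned the start and the DRB peaks lay on either side of it, so acetylated H2A.Z was still called there while the nascent transcript stood near 1 to 2% of DMSO.

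INSIG1 had 620.0 tags over 5902 bases in DMSO, 35.0 over 1151 in DRB and 132.8 over 3558 in ActD. Its log2 ratio under DRB, -4.15 in summed tags and -1.79 per kilobase, was the 43rd lowest of 10355 genes with a peak in both lists. The remaining DRB peak covered only the 47 bases farthest from the start in the promoter window that holds the stretch printed above, and the ActD peak began after the start.

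DHCR7 had 218.2 tags over 2817 bases in DMSO, 170.7 over 2626 in DRB and 6.66 over 637 in ActD. The log2 ratio under ActD was -5.03 in summed tags and -2.89 per kilobase, the 73rd lowest summed ratio of 9658 genes. The ActD peak covered 39 bases of the window at the printed stretch, against all of it in DMSO and DRB. The other DHCR7 window, which holds its GGGCGG and CCAAT matches, was fully covered in DMSO and DRB and not covered in ActD. Nascent DHCR7 RNA was lower under both inhibitors.

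LSS had 313.8 tags over 2935 bases in DMSO, 131.0 over 2197 in DRB and 23.1 over 1398 in ActD. Its ratio under ActD was -3.77 in summed tags and -2.70 per kilobase. The summed ratio of LSS was the 295th lowest of 9658 genes, while its CPM was higher than in DMSO. In DMSO and ActD its peaks flanked the printed stretch and none covered it, whereas 1 peak covered it in DRB and in siNTC.

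IDI1 kept more tags in ActD (999.0) than in DRB (185.0), against 1373.6 in DMSO, and FDFT1 likewise had 658.6 and 338.7 against 917.3. HMGCS1 had 1379.3 in DMSO, 358.6 in DRB and 470.9 in ActD, where its 4 peaks reached 11533 bases into the gene. Its DMSO peak of 1379.3 normalised tags had 484.9 library tags as listed against the control. Its highest-scoring ActD peak, of 381.9 normalised tags, had 754.0. Weak peaks were thus easier to call in ActD, and this and a wider spread into the gene cannot be told apart. CYP51A1 had 602.3, 264.1 and 222.9 tags. Over the 8 genes the median log2 ratio of summed tags was -1.69 in DRB and -1.52 in ActD, beside -0.70 and -0.63 over all genes with peaks in both lists. Per kilobase it was -0.93 and -1.60, beside -0.53 and -0.85. All 8 were below DMSO in both lists on either scale. Most genes with peaks in both lists were below it too, as the medians show. For summed tags the upper quartile over all genes was 0.26 in DRB and 0.04 in ActD. DRB and ActD are set against the same DMSO list.

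**Figure D4:**
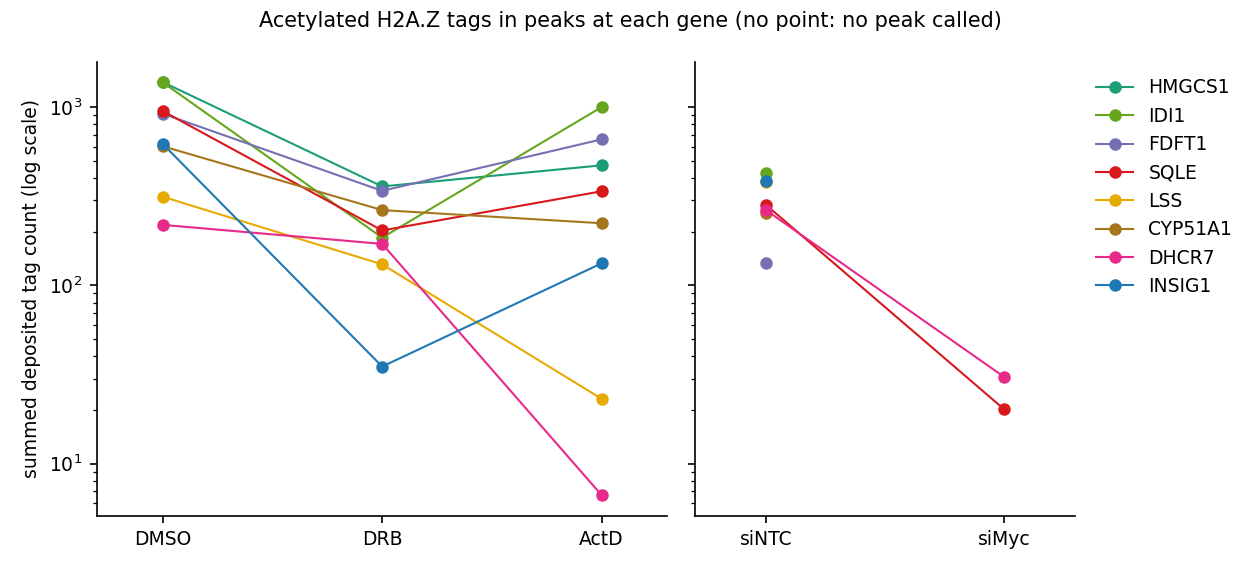
Summed deposited tag count (log scale) of acetylated H2A.Z peaks at each of the 8 genes, 1 point a library, with no point where no peak was called. Each gene is below DMSO in both inhibitor lists, as were most genes with peaks in both. INSIG1 is lowest in DRB at 35.0 and DHCR7 lowest in ActD at 6.66.

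In siMyc cells 5 of the 7 genes with a siNTC peak had none (CYP51A1, FDFT1, IDI1, INSIG1 and LSS), against 38.5% of the 10682 genes with one. SQLE went from 281.9 to 20.2 tags and DHCR7 from 263.4 to 30.7, log2 ratios of -3.80 and -3.10 beside -3.17 for all genes. The whole siMyc list held 355355 summed tags against 3986659 in siNTC, and its header, unlike that of siNTC, states that the control was scaled to the library. That scaling concerns the library and control tags behind the fold ratio, and the tag counts compared here are a separate normalised value. With 1 library a group, a difference between the libraries and a difference in the cells cannot be told apart.

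**Figure D5:**
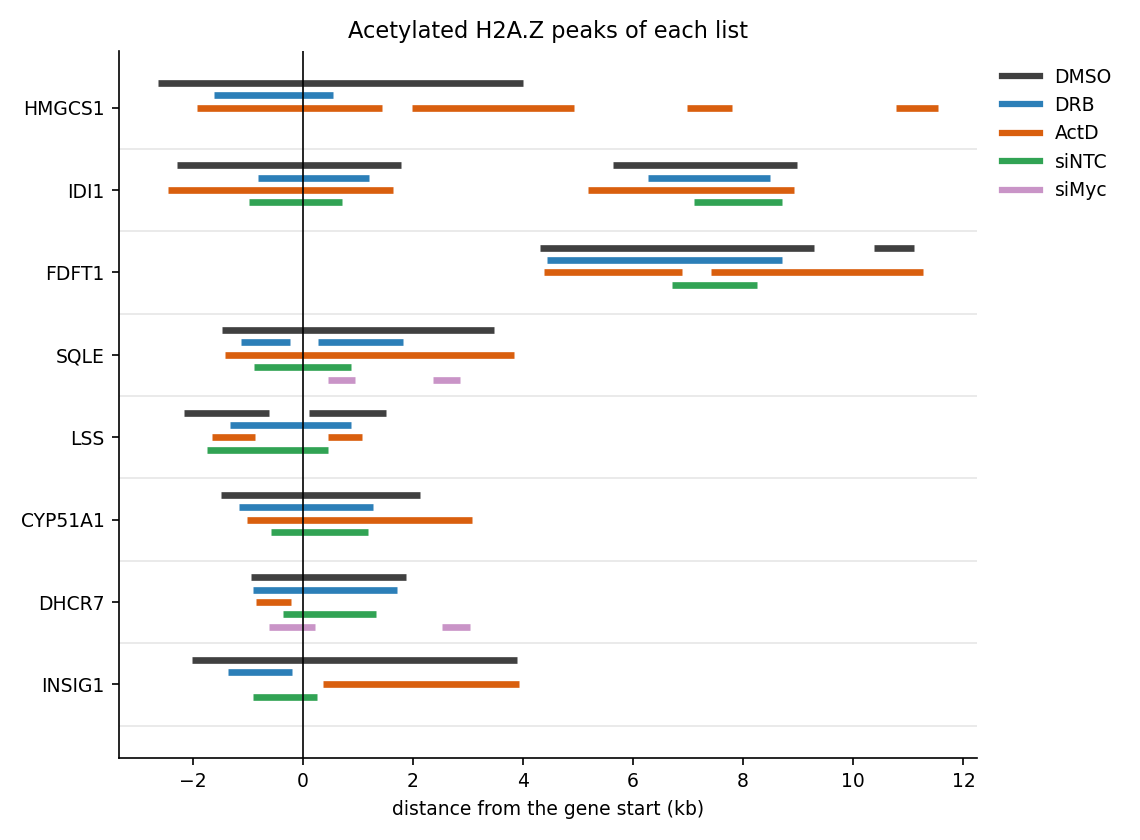
Acetylated H2A.Z peaks at the 8 genes in the 5 lists, as distance in kb from the gene start along the gene. For SQLE and FDFT1 the reference tables used here give no strand, and distance runs from the lower coordinate. Peaks lie mostly within 4 kb of the start, except at FDFT1, at a further IDI1 site and at HMGCS1 in ActD.

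Peaks of H2A.Z without regard to acetylation were few. HMGCS1 had one in DMSO, of 500 bases across its start with 19.7 tags, against 10.6% of genes with a peak. None of the 8 had one in DRB, against 22.6%. In ActD HMGCS1 had 4 within the gene and INSIG1 had 1, against 20.2%. These held 5.97 to 10.2 normalised tags each. The peak of 10.2 had 20.1 library tags, while the DMSO peak of 19.7 had 6.9. Weak peaks were thus easier to call in ActD, so their absence from the DMSO list is not read as a difference. DHCR7 alone had one in siNTC (18.1% of genes) and in siMyc (27.8%), before its start with 9.58 and 8.10 tags.

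RNA bound by the 3 proteins was called at most of the genes in untreated cells. H2A.Z RIP gave a peak at 7 of 8 (not LSS), against 66.1% of genes. Acetylated H2A.Z RIP gave one at SQLE, FDFT1, LSS, CYP51A1 and DHCR7, against 78.9%, and Tip60 RIP at 7 (not IDI1), against 82%. The highest-scoring acetylated H2A.Z RIP peak of DHCR7, at chr11:71440200-71440825 within the gene, had 33.8 tags, 333.8-fold over the control in the authors' list. FDFT1 held the most such peaks, 7 with 57.2 tags in all, DHCR7 had 5 with 56.3 and SQLE had 3 with 47.0. In Tip60 RIP SQLE and FDFT1 had 4 peaks each, with 50.5 and 21.5 tags. The lists mark each peak as plus strand, so RNA of these genes and of antisense neighbours cannot be told apart.

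Input DNA gave 4.52 to 33 counts a gene and library, too few to show any but large differences. No member was higher in DRB than in DMSO input among 4 measured (3.73% of genes were), and none lower (3.8%). In ActD 1 of 6 was higher, DHCR7 with 8 counts in DMSO and 18 in ActD, at a log2 ratio of 1.07 (-0.16 to 2.52), against 5.72%, and none was lower (4.5%). The interval of DHCR7 reaches past 0, so the difference was not detectable at this depth. Summed over the 3 inputs and divided by length, HMGCS1 stood at 86.7 counts per kb and the other 7 between 14.8 and 48.2, beside a median gene of 22.7. The neighbours within 1 Mb had medians from 0.58 (IDI1) to 2.01 (SQLE) times that of all genes, above 1 at SQLE, CYP51A1, DHCR7 and HMGCS1 and below it at the other 4.

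Several members share ground with other genes. INSIG1 overlaps INSIG1-DT, IDI1 overlaps IDI2-AS1 and the start of WDR37, FDFT1 overlaps LOC105379243, and LSS overlaps LOC124905045 and SNORD159. CYP51A1 overlaps CYP51A1-AS1 and DHCR7 overlaps DHCR7-DT. Whether strand was used in counting is not given in the sources used here, so reads of these partners cannot be told apart from those of the member.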

How the data were processed

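The 8 genes, the gene lists and the tests were chosen with earlier results of these data known. HL-60 libraries of 27 groups with 1 library each were described, and files of 21 were used here. The authors deposited expected counts and TPM per gene for 5 RNA and 3 input DNA libraries, and peak lists of 10 ChIP and 3 RIP libraries. Per the submitters' processing notes, reads were trimmed with Trim Galore and cutadapt, checked with FastQC and aligned to GRCh38, with STAR 2.5.2b and HOMER among the tools. No source used here names the program behind the expected counts. The peak lists, per the file headers, hold a score, a normalised tag count (a signal on a scale the headers do not state), a fold ratio over a control and its p-value; each deposited peak had at least 4-fold over control and a p-value of at most 1.00e-04.

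From the expected counts, as deposited, CPM without mitochondrial genes was computed, then log2 ratios of CPM + 1. A gene was measured in a comparison at a mean of at least 1 CPM and at least 20 summed counts, and called at 2-fold. Intervals are 95% exact (Clopper-Pearson) and cover counting error only. No p-value was computed. Positions and promoter sequences come from RefSeq GRCh38.p14; 12734 of 14477 genes measured over the 5 RNA libraries had a position. Named genes are the 8 members, SREBF1 and SREBF2, the 2 highest and 2 lowest genes of each other list (a part of them is printed), 5 nearest profiles, and, for peaks, the highest-scoring peak of a list at a gene; some genes this rule names are not reported here. SCAP under DRB was added after its value was seen. Ratios were tested on simulated counts, where 50 of 50 genes made 8-fold lower were called and 25 of 12530 unchanged genes were. Both simulated libraries came from the DMSO profile with counting error only, and only a few well-counted genes were changed. The simulation thus checks the computation and cannot give the rate of false calls between the real libraries. Scaling, pseudocount, filter, threshold and peak window were varied. Tools were Python 3.11.15, NumPy 2.4.6, pandas 2.3.3, SciPy 1.17.1 and matplotlib 3.10.9, with R 4.3.3, edgeR 4.0.16 and DESeq2 1.42.0 for scaling factors only.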

Additional observations from a re-analysis of the deposited data

How the results depend on the processing

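No paired analysis was possible because each group had 1 library. Of 122 recomputed counts, 102 stayed within 1.5 times, and none of 522 recomputed ratios of single genes changed sign after a call. Genes lower under DRB numbered 7 with mitochondrial genes in the CPM (57.5% of all genes) and 2 at 4-fold (30.9%). Under ActD they numbered 3 when centred on the median gene (34.6% of all genes), with TMM factors (42.3%), with DESeq2 size factors (40.6%) and at 4-fold (35.5%). At 1.5-fold 1 gene was higher in nascent than in total RNA (14.2% of all genes). At that threshold 2 were higher in DRB input DNA (12.9%) and 2 in ActD input DNA (15.9%). With a pseudocount of 5 CPM none was higher in ActD input (4.32%). H2A.Z peaks fell to 1 gene in ActD within 1 kb of the start, and to 0 in siNTC and in siMyc with no window or at 8-fold over control. Acetylated H2A.Z in siNTC was at 2 genes at 8-fold. RIP peaks within 1 kb of the start were at 3 (H2A.Z), 3 (acetylated H2A.Z) and 2 (Tip60) genes, and at 8-fold H2A.Z had 4. For SQLE and FDFT1, which had no strand, both gene ends were searched as starts. The H2A.Z RIP peak counted at FDFT1 lay 43601 to 44101 bases from its lower coordinate, at the far end. The shares of all genes at these peak settings are not given here, so nothing is read from these peak counts. TMM moved the median of all genes from -0.83 to -0.31 under DRB and from -1.05 to -0.46 under ActD; centring moved the higher and lower shares to 29.2% and 34.5% under DRB and 33.6% and 34.6% under ActD. SQLE was lower under both inhibitors in all 12 alternatives run.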

Other observations

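Fatty acid synthesis genes, which SREBP1 also drives, stood on both sides of DMSO. Under DRB 2 of 11 were lower and 2 higher (47% and 15.6% of all genes), with a median log2 ratio of 0.08 beside -0.83 over all genes. ELOVL6, which lengthens fatty acids, had 29.2 CPM under DMSO and 135.0 under DRB, and ACSS2, which makes acetyl-CoA from acetate, had 32.6 and 98.2. Under ActD 4 were lower and 1 higher (50.7% and 19%), with a median of 0.01 beside -1.05. ACACA, which makes malonyl-CoA, had 186.8 CPM under DMSO and a log2 ratio of -2.97, and FADS2, a desaturase, had 105.3 and 258.3. FASN, the synthase itself, had 509.2 CPM in untreated nascent RNA and 126.3 under DMSO, the lowest ratio of the list at -2.00.

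The isoprenoid branches, which draw on the same precursors for ubiquinone, dolichol and protein prenylation, held genes that moved apart under the inhibitors. PDSS1, a subunit of the enzyme that builds the ubiquinone tail, had 11.4 CPM under DMSO, 52.0 under DRB and 0.368 under ActD, where 2 counts gave a log2 interval of -8.02 to -3.06. RABGGTB, a subunit of a prenyltransferase, had 64.0, 3.95 and 140.5 CPM, the reverse order. Of 10 measured genes 5 were lower under each inhibitor, with 1 higher under DRB and 2 under ActD; the medians were -1.30 and -0.96, and the shares of all genes are those above. Among 9 genes of enzyme degradation 3 were lower under DRB and 4 under ActD and none higher, with medians of -0.13 and -0.64 beside -0.83 and -1.05 over all genes. RNF139, a ubiquitin ligase of the endoplasmic reticulum, had 23.3 CPM under DMSO, 0.208 under DRB and 0.184 under ActD, each a single count, with log2 intervals of -12.12 to -4.31 and -12.30 to -4.49.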
